A study of Mus musculus with 4 samples.

Results

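The transcripts described here encode 8 transcription factors that act while thymocytes commit to the T lineage: Bcl11b, Tcf7, Lef1, Runx1, Ets1, Gfi1, Zfpm1 and Ikzf1. They were taken as a named list, by gene symbol, from 31053 genes in the deposited tables, and all 8 were found in both gene expression libraries. In RefSeq's GRCm38.p6 the genes are Bcl11b at chr12:107910403-108004145, Tcf7 at chr11:52246527-52283383, Lef1 at chr3:131110297-131224357, Runx1 at chr16:92601466-92826074, Ets1 at chr9:32636241-32757820, Gfi1 at chr5:107716655-107725805, Zfpm1 at chr8:122281856-122337862 and Ikzf1 at chr11:11684962-11772930. Each was followed in cell barcodes with at least 1000 UMIs (unique molecules), by library and by stage. These were 4414 autonomy cells and 4227 turnover cells of 8961 barcodes in all.

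The study compared mouse thymocytes in thymus autonomy with thymocytes in thymus turnover, by droplet 5′ RNA sequencing with T cell receptor chains sequenced from the same cells. Thymi in both conditions were wild type, were transplanted and were taken at 28 days, and the sort covered DN3-DN4, ISP (immature single positive) and DP (double positive) thymocytes. In autonomy the thymus keeps producing T cells from its own thymocytes, and in turnover incoming progenitors replace the resident cells. The labels used here give neither the hosts, the ages nor the number of animals. With 1 gene expression library per condition, no spread between animals could be seen, and values are compared without a test. Intervals are at the 95% level and describe counting error alone.

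Commitment to the T lineage begins with Notch signals in early progenitors and ends when Bcl11b is switched on and genes of other lineages are shut off. TCF-1, the product of Tcf7, and LEF-1, the product of Lef1, are related HMG-box factors, and Tcf7 is an early target of Notch. BCL11B is a zinc finger factor that guards T cell identity. RUNX1 and ETS1 bind DNA side by side at many T cell genes, including the T cell receptor loci. GFI1 is a zinc finger repressor, FOG-1, the product of Zfpm1, is a partner of GATA factors, and IKAROS, the product of Ikzf1, restrains Notch targets in DP cells.

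Stages came from 13 clusters made without the 8 genes and named from markers, with level thresholds set after the data were seen. Small resting DP-like cells expressed Rag1 (1479 CPM in autonomy and 1630 CPM in turnover), Cd8a (3560 and 4147 CPM) and Cd4 (992 and 978 CPM). CPM is the number of UMIs of a gene per 1000000 UMIs summed over the cells. There were 2447 such cells in autonomy and 2708 in turnover. Cycling ISP/DP-like cells numbered 256 and 679, and post-selection-like cells, led by Itm2a, Nr4a1 and Cd5, numbered 528 and 569. A pair of clusters, topped by Socs3 and by the TRB segment Trbv29, held 877 autonomy cells and 114 turnover cells and was kept apart. It is called Dtx1-led after its autonomy cells, which had 574 CPM of Dtx1, a Notch target. Its turnover cells had 0 CPM, so the name describes the autonomy cells alone. Dtx1 was not particular to this pair of clusters. Small resting DP-like cells had 274 CPM in autonomy and 0.899 CPM in turnover, and cycling cells had 143 and 3.26 CPM. Mature single positive-like cells (154 and 19), droplets with macrophage transcripts (144 and 15) and an Il2ra-high cluster (8 and 123) had too few cells in 1 library for a comparison. The Il2ra-high cluster was led in part by gamma chain genes (Tcrg-C1, Tcrg-C2) and was not named DN3-like. Cells held a median of 2430.5 UMIs in autonomy and 2112 in turnover, and 31 barcodes occurred in both libraries.

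Several properties of the autonomy library stood beside the comparison. Of the cells with a productive TCR beta (TRB) chain, 84.6% in autonomy and 3.97% in turnover shared it with another cell, so that autonomy cells are not independent and its intervals are too narrow. The autonomy library held 1806 cells with Xist transcripts and 959 with Y-linked ones, while the turnover library held 0 and 2459. The median gene was also higher in autonomy than in turnover, by a ratio of 1.22 over all cells, 1.11 in cycling, 1.10 in resting and 1.03 in post-selection-like cells. Ratios of the factors are given against 1, and are to be read beside these medians.

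Promoter windows from the RefSeq table of GRCm38.p6, the build that is also called mm10, were available for 7 of the 8 genes, as 14 windows. Each ran from 250 bases before to 50 bases after an annotated start. Motifs of 5 factor families, chosen with these windows and the earlier results in view, were searched on both strands. The RBPJ motif GTGGGAA, the sequence bound by the DNA-binding partner of Notch, was in 3 of 14 windows and in 6.38% of 32851 windows of the genome. Those 3 windows belonged to Zfpm1, with 2 matches, and to Lef1, whose 2 overlapping windows hold the same match just past the start. The E protein motif CACCTG was in 4 of 14 windows and in 20.2% of all windows. The motif TGTGGT of RUNX factors was in 1 window (16.8% of all), the TCF/LEF motif CTTTGA in 2 (16.0%) and the GATA motif AGATAA in 1 (11.2%). A match describes these letters only and is no evidence of binding. The sequences below are shown because Zfpm1 and Gfi1 had the largest ratios between the libraries, Lef1 had the next largest, and Bcl11b differed little in resting cells; capitals mark RBPJ in Zfpm1 and Lef1, the E protein motif in Gfi1 and TCF/LEF in Bcl11b.
Zfpm1 (chr8:122281891-122282140, plus strand, the 250 bases before the start): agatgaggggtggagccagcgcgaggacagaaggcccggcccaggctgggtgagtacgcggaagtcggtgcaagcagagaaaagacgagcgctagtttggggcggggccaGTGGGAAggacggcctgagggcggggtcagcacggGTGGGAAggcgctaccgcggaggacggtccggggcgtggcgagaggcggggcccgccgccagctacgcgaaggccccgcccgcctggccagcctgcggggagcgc
Gfi1 (chr5:107725806-107726055, minus strand, the 250 bases before the start): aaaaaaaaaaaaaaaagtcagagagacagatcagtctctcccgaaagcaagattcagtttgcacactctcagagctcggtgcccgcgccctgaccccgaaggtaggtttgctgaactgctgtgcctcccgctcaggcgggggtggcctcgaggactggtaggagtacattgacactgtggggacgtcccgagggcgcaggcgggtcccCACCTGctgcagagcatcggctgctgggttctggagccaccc
Bcl11b (chr12:108003415-108003664, minus strand, the 250 bases before the start): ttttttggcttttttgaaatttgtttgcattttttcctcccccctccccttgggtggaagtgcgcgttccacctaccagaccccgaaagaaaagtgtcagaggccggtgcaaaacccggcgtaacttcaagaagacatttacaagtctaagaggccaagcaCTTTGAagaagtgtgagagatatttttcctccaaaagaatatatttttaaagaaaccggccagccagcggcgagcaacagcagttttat
Lef1 (chr3:131110317-131110346, plus strand, 30 bases around the match): cgcggcgaggagaagcgGTGGGAAggcgca

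Over all cells, 5 of the 8 factors were at least 1.5-fold higher in autonomy than in turnover, and 0 were 1.5-fold lower. Among 11674 genes with at least 20 UMIs, 33.4% were 1.5-fold higher and 8.99% were 1.5-fold lower. The 5 factors were Zfpm1, Gfi1, Lef1, Ets1 and Ikzf1, while Bcl11b, Tcf7 and Runx1 lay within 1.5-fold. The libraries hold different mixtures of stages, and with each autonomy class weighted by its turnover share of UMIs only Zfpm1, Gfi1 and Lef1 remained at least 1.5-fold higher. For that reason the values below are given within stages.

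Tcf7 had 1704 CPM in autonomy and 1686 CPM in turnover in small resting DP-like cells, from 10263 and 9379 UMIs. The ratio was 1.01 (0.983 to 1.04), so its level differed by less than the median gene did. In cycling cells Tcf7 had 839 CPM in autonomy and 771 CPM in turnover, a ratio of 1.09 (1.05 to 1.13). In post-selection-like cells the order turned, with 1207 CPM in autonomy and 1577 CPM in turnover, a ratio of 0.766 (0.722 to 0.811). This was the lowest ratio of any factor in the 3 stages compared. It lay between 0.640 and 0.803 under the 12 other settings tried. Autonomy cells of clones with Xist and of clones with Y-linked transcripts, described further on, had 1208 and 1212 CPM at this stage, both under the turnover level.

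Lef1, the other HMG-box factor, did not follow Tcf7. It had 363 CPM in autonomy and 215 CPM in turnover in resting cells, a ratio of 1.69 (1.57 to 1.81). In cycling cells it had 324 and 167 CPM, a ratio of 1.94 (1.81 to 2.08). In post-selection-like cells the difference was smaller, 1054 CPM in autonomy and 890 CPM in turnover, a ratio of 1.18 (1.10 to 1.27). The share of resting cells with at least 1 Lef1 UMI, after each cell was thinned to 1000 UMIs, was 28.1% in autonomy (26.3 to 29.9) and 18.9% in turnover (17.4 to 20.4). The 5 resting clusters with at least 50 autonomy cells had 326 to 399 CPM. The 4 with at least 50 turnover cells had 201 to 232.5 CPM. Clusters of 1 library are not replicates, and such ranges were not compared over all genes.

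Bcl11b was close in both libraries. Resting cells had 410 CPM in autonomy and 408 CPM in turnover, a ratio of 1.01 (0.95 to 1.07). Cycling cells had 159 CPM in autonomy and 185 CPM in turnover, a ratio of 0.859 (0.786 to 0.938). That cycling value was not stable in direction, since it was 1.10 with each cell thinned to 1000 UMIs and 1.01 with the mean of per-cell CPM. Post-selection-like cells had 247 CPM in autonomy and 274 CPM in turnover, a ratio of 0.902 (0.788 to 1.03).

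Runx1 had 187 CPM in autonomy and 157 CPM in turnover in resting cells, a ratio of 1.19 (1.09 to 1.30). The ratio was 1.21 (1.08 to 1.36) in cycling and 1.12 (0.901 to 1.39) in post-selection-like cells. In each stage the Runx1 ratio was slightly above that of the median gene. Its interval included the median gene each time, so a difference from the median gene is not resolved. Ets1 was further apart, with 600 CPM in autonomy and 427 CPM in turnover in resting cells, a ratio of 1.41 (1.33 to 1.48). Its ratio was 1.46 (1.34 to 1.59) in cycling and 1.34 (1.22 to 1.46) in post-selection-like cells. Over all cells the Ets1 ratio was 1.84 (1.77 to 1.90). Its side of the 1.5-fold mark depended on the setting, since other settings gave up to 1.68 in cycling and 1.53 in post-selection-like cells, and as little as 1.41 over all cells. Resting clusters had 540 to 704 CPM of Ets1 in autonomy and 381 to 497 CPM in turnover.

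Ikzf1 had 221 CPM in autonomy and 159 CPM in turnover in resting cells, a ratio of 1.39 (1.28 to 1.52). The ratio was 1.29 (1.15 to 1.44) in cycling cells. In post-selection-like cells Ikzf1 had 397 CPM in autonomy and 293 CPM in turnover, a ratio of 1.36 (1.21 to 1.53). Resting clusters had 176 to 249 CPM in autonomy and 141 to 169 CPM in turnover.

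Gfi1 was at least 1.5-fold higher in autonomy in all 3 stages with the stages and scaling as reported, though not under every setting. Resting cells had 59.6 CPM in autonomy and 30.4 CPM in turnover, from 359 and 169 UMIs, a ratio of 1.96 (1.63 to 2.37). Cycling cells had 22.7 CPM in autonomy and 12.6 CPM in turnover, a ratio of 1.81 (1.38 to 2.35), and with 1 cell per TRB clone that ratio was 1.26. Post-selection-like cells had 37.0 CPM in autonomy and 13.9 CPM in turnover, from 69 and 21 UMIs, a ratio of 2.66 (1.61 to 4.57). With stages set by a marker gate on single cells the post-selection-like ratio was 1.47, also under the mark. Resting clusters had 44.6 to 71.5 CPM of Gfi1 in autonomy and 26.3 to 31.9 CPM in turnover.

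Zfpm1 was sparse and had the highest ratio of the 8 in every stage. In resting cells 48 UMIs were counted in autonomy and 12 in turnover, which is 7.97 CPM and 2.16 CPM, a ratio of 3.70 (1.93 to 7.64). In post-selection-like cells the counts were 30 in autonomy and 2 in turnover, 16.1 and 1.32 CPM, a ratio of 12.2 with a wide interval (3.08 to 105). In cycling cells the counts were 49 in autonomy and 51 in turnover from 256 and 679 cells, 11.7 and 4.37 CPM, a ratio of 2.68 (1.78 to 4.05). With each cell thinned to 1000 UMIs the cycling ratio was 0.884, since only 0.781% of autonomy cells (0.0948 to 2.79) and 0.884% of turnover cells (0.325 to 1.91) kept a Zfpm1 UMI. Its share of resting cells after thinning was 0.817% in autonomy (0.50 to 1.26) and 0.0739% in turnover (0.00895 to 0.267).

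**Figure D1:**
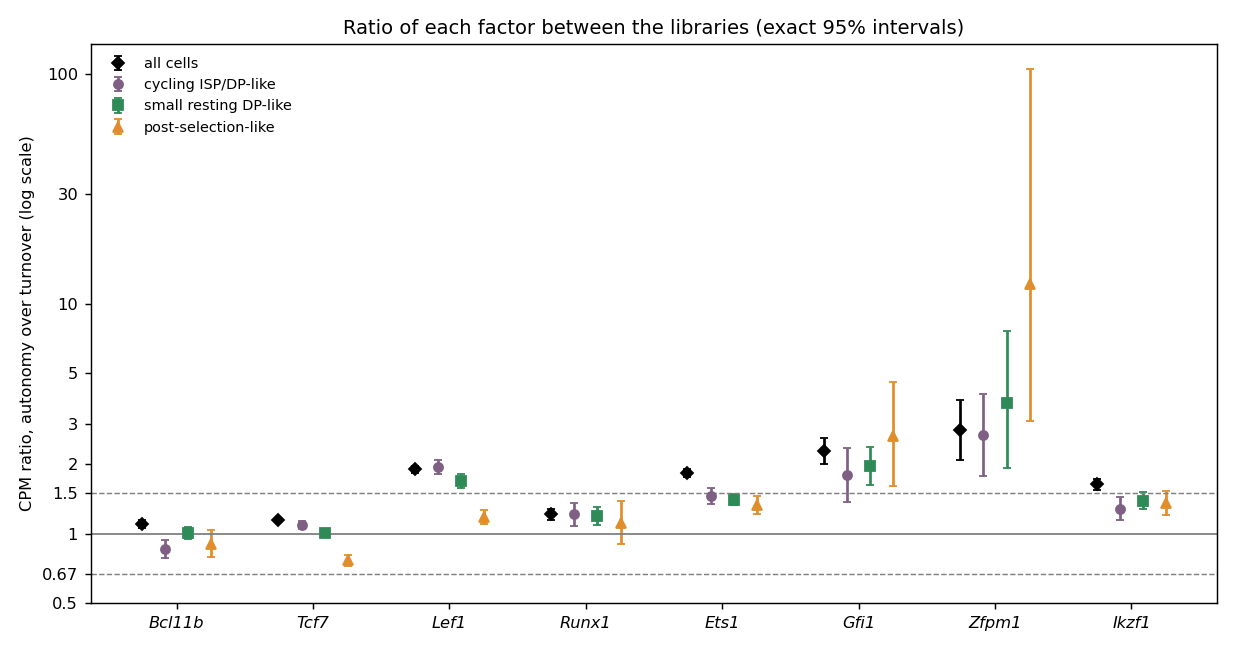
CPM ratio of each factor, autonomy over turnover, on a log axis, over all cells and in the 3 stages compared, with exact 95% intervals for counting error; the dashed lines mark 1.5-fold either way. Gfi1 and Zfpm1 lie above 1.5 in each stage, Lef1 in all but post-selection-like cells, and Tcf7 is below 1 in post-selection-like cells alone among its stages.

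By stage, 3 of 8 factors passed 1.5-fold higher in resting cells (Lef1, Gfi1 and Zfpm1), where 23.7% of 10134 genes did and 6.31% were 1.5-fold lower. The same 3 factors passed in cycling cells, where 23% of 10115 genes were 1.5-fold higher and 6.51% lower. In post-selection-like cells 2 of 8 passed (Gfi1 and Zfpm1), beside 23.4% of 8718 genes higher and 7.15% lower. These shares of the factors are near those of all genes, so the counts alone do not set the factors apart. At a 2-fold mark 2 factors were higher over all cells (Gfi1 and Zfpm1), where 16.6% of genes were and 4.07% were lower. That mark left 1 factor in cycling cells (Zfpm1, beside 9.08% of genes higher and 3.18% lower) and 1 in resting cells (Zfpm1, beside 10.5% and 2.16%). In post-selection-like cells it left 2 (Gfi1 and Zfpm1, beside 10.4% and 2.31%).

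Levels across the cycling, resting and post-selection-like stages were ordered alike in both libraries for all factors but Zfpm1. Bcl11b, Tcf7, Runx1 and Gfi1 were highest in resting cells, while Lef1, Ets1 and Ikzf1 were highest in post-selection-like cells. The intervals of cycling and post-selection-like cells overlapped for Runx1 in both libraries and for Gfi1 in turnover, so the order of those neighbours is not resolved. Post-selection-like cells had 2.90 times the Lef1 CPM of resting cells in autonomy (2.73 to 3.09) and 4.14 times in turnover (3.83 to 4.48). For Ikzf1 the same ratio was 1.80 in autonomy (1.64 to 1.97) and 1.84 in turnover (1.64 to 2.07). Bcl11b went the other way, at 0.603 in autonomy (0.545 to 0.666) and 0.673 in turnover (0.604 to 0.747). Tcf7 was 0.708 of its resting level in autonomy (0.677 to 0.742) and 0.935 in turnover (0.894 to 0.979).

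Cycling cells had lower CPM than resting cells for 7 factors in both libraries, but they held many more molecules per cell, with a median of 14407.5 UMIs in autonomy and 15472 in turnover, against 2281 and 1869 in resting cells. Counted per cell the order of these 7 turned. Bcl11b had 2.59 UMIs per cycling cell against 1.01 per resting cell in autonomy, and 3.18 against 0.838 in turnover. Tcf7 had 13.7 UMIs per cycling cell in autonomy and 13.3 in turnover, against 4.19 and 3.46 per resting cell. A lower CPM in cycling cells is therefore a smaller share of a larger pool and not fewer molecules per cell. Zfpm1 was the exception on the CPM scale, with 0.680 of its cycling level in resting cells in autonomy (0.447 to 1.03) and 0.494 in turnover (0.240 to 0.939).

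**Figure D2:**
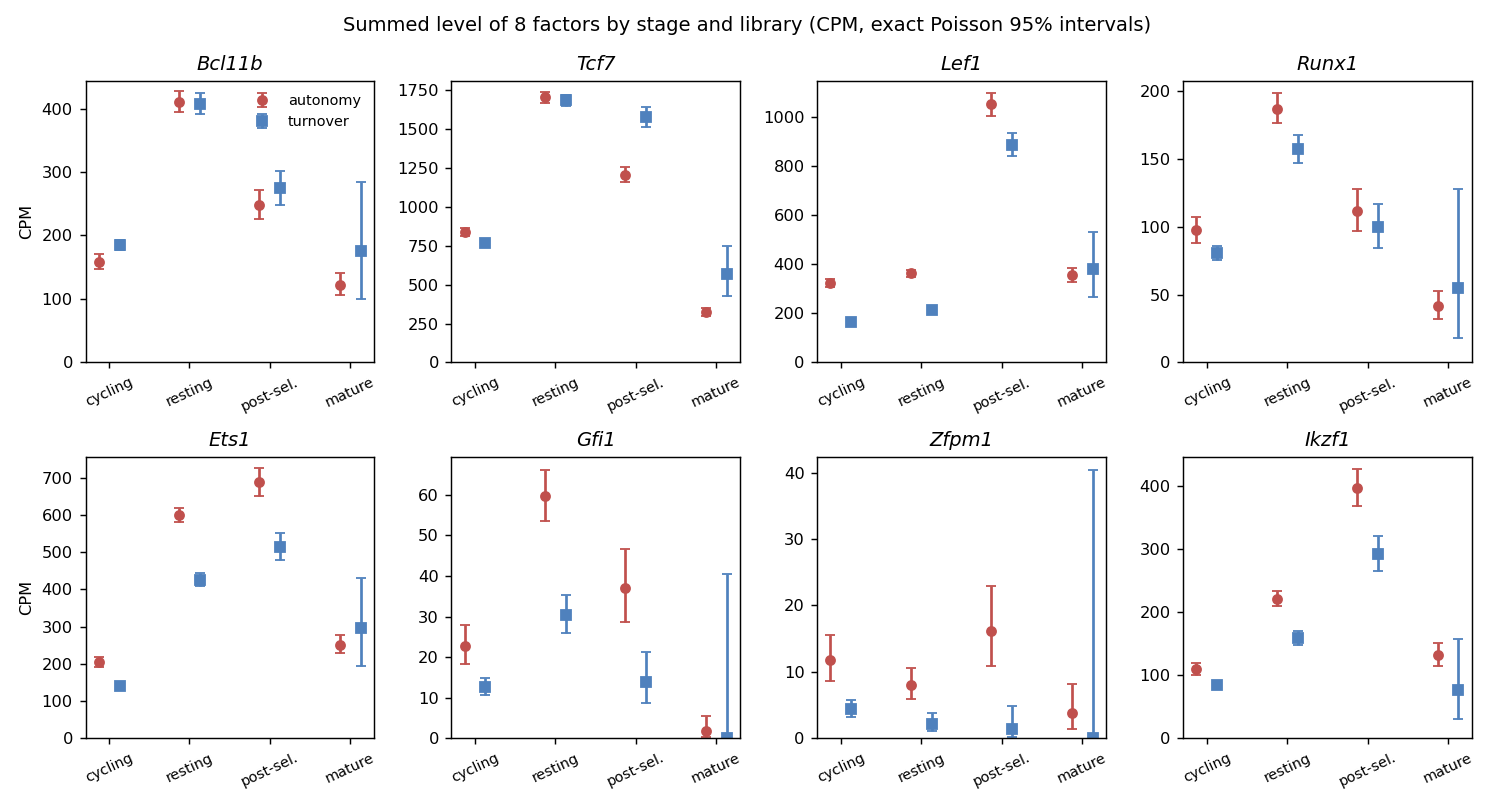
Summed level of each factor in CPM, in cycling ISP/DP-like, small resting DP-like, post-selection-like and mature single positive-like cells, with exact Poisson 95% intervals; circles are autonomy and squares turnover. Lef1 in post-selection-like cells was 1054 CPM in autonomy and 890 CPM in turnover, its highest level in either library.

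At both ends of the series of stages only levels can be given. In the 123 turnover cells of the Il2ra-high cluster, Runx1 had 322 CPM and Bcl11b 383 CPM, while Lef1 had 124 CPM and Ikzf1 61.6 CPM. Cycling turnover cells had 0.250 times that Runx1 level (0.220 to 0.286) and 1.69 times its Tcf7 level of 455 CPM (1.54 to 1.87). Among the 154 mature autonomy cells, Tcf7 had 324 CPM, which was 0.268 of its post-selection-like level (0.243 to 0.295), and Lef1 had 356 CPM, or 0.338 (0.308 to 0.371). Gfi1 had 3 UMIs there, 1.86 CPM, against 37.0 CPM in post-selection-like autonomy cells. The mature cluster had a median of 10246 UMIs per autonomy cell and 3153 were found in post-selection-like cells, so the CPM comparison is again between pools of different size. Within autonomy, the Dtx1-led cells had 501 CPM of Lef1 beside 363 CPM in resting cells, a ratio of 1.38 (1.28 to 1.48), and Tcf7 had 1385 beside 1704 CPM, a ratio of 0.813 (0.779 to 0.847). The other factors in Dtx1-led cells lay between 0.840 and 0.960 of their resting level. The intervals of Runx1 (0.852 to 1.08), Gfi1 (0.769 to 1.18) and Zfpm1 (0.428 to 1.55, from 14 UMIs) included 1, and those of Bcl11b, Ets1 and Ikzf1 did not.

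No class clearly lacked all 8 factors, so no background share of cells with a UMI could be taken for the set. The 2 sparsest factors came near to absence in the 154 mature autonomy cells, with 3 UMIs of Gfi1 and 6 of Zfpm1. After thinning, 0% of those cells (0 to 2.37) kept a UMI of either. Droplets with macrophage transcripts carried DP transcripts as well, with 1287 CPM of Rag1 in autonomy and 910 CPM in turnover. After thinning, 27.1% of the 144 such autonomy droplets and 26.7% of the 15 turnover ones had a Lef1 UMI, with median depths of 2629.5 and 2201 UMIs. Summed macrophage markers (all 6 detected in autonomy, 4 in turnover) were 13.0 CPM in resting autonomy cells and 1.26 CPM in resting turnover cells, and erythroid markers were at 0 in both libraries. Leaving out the mature and macrophage-transcript clusters gave ratios over all cells of 1.97 for Lef1, 1.93 for Ets1 and 2.47 for Gfi1.

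The autonomy library could be divided by TRB clone, that is, by cells with the same TRB chain. A clone was called an Xist clone or a Y-linked clone when at least 3 of its cells showed the 1 kind of transcript. These cells also had to be at least 5 times as many as those with the other kind. That gave 110 Xist clones with 1136 cells and 39 Y-linked clones with 1028 cells. The kind of 638 clones, with 1043 cells, was undecided. This rule was set after the data were seen. In resting cells Bcl11b had 461 CPM in the 759 cells of Xist clones and 321 CPM in the 593 cells of Y-linked clones, a ratio of 1.43 (1.28 to 1.61). That ratio stood at percentile 99.2 of 3456 genes with at least 200 UMIs. The turnover level, 408 CPM from a library with Y-linked and no Xist transcripts, lay between them. Among cells with Y-linked and no Xist transcripts in both libraries, the resting ratio of autonomy to turnover was 0.825 for Bcl11b.

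For each of the other 7 factors the interval of that ratio in resting cells included 1. Lef1 had 355 CPM in Xist clones and 338 CPM in Y-linked clones, Ets1 had 610 and 600 CPM, and Tcf7 had 1680 and 1732 CPM, with ratios of 1.05 (0.934 to 1.18), 1.02 (0.930 to 1.11) and 0.970 (0.921 to 1.02). The ratio was 0.952 (0.808 to 1.12) for Runx1, 0.915 (0.792 to 1.06) for Ikzf1 and 0.877 (0.660 to 1.17) for Gfi1. For Zfpm1 it was 0.643 (0.272 to 1.5) from 12 UMIs in Xist clones and 14 in Y-linked clones, too few to resolve a difference of that size. For Lef1 and Ets1, both kinds of clone thus lay above the turnover levels of 215 and 427 CPM. The Bcl11b ratio between the kinds of clone was 1.08 (0.834 to 1.40) in cycling cells and 1.10 (0.855 to 1.42) in post-selection-like cells, where fewer cells were counted. In cycling cells, from 58 Xist-clone cells and 37 Y-linked-clone cells, other factors stood higher in Xist clones, with ratios of 1.52 (1.06 to 2.19) for Runx1, 1.38 (1.13 to 1.68) for Lef1 and 1.38 (1.0 to 1.93) for Ikzf1. How many animals each kind of clone came from is not known, so sex and animal cannot be told apart.

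Single clones varied. In the 28 Xist clones with at least 10 resting cells Bcl11b ran from 91.6 to 833 CPM with a median of 432, and in the 18 Y-linked clones from 191 to 561 CPM with a median of 336, so the clones overlapped. Of these, 18 Xist clones and 4 Y-linked clones were above the turnover level. Over all 50 clones of that size, undecided ones included, 49 were above the turnover level for Ets1 and 43 for Lef1. For Gfi1 there were 42, for Ikzf1 41, for Runx1 36, for Bcl11b 23, for Tcf7 22 and for Zfpm1 19. The median clone had 0 CPM of Zfpm1. Clones of 1 library are not replicates, and such counts were not made for all genes. The median gene was itself higher in resting autonomy cells, by a ratio of 1.10. Gfi1 values rest on 0 to 10 UMIs per clone. The spread between clones was 3.25 times that of Poisson counting for Tcf7, 2.66 for Bcl11b and 1.93 for Lef1. It was 1.26 for Ets1, 1.13 for Runx1, 1.12 for Ikzf1, 1.12 for Zfpm1 and 0.721 for Gfi1. The Lef1 value was 1.05 among Xist clones and 3.27 among Y-linked clones. The largest clone, with 146 cells of which 23 were resting, had 642 CPM of Lef1, the highest of the Y-linked clones, and 1112 CPM of Tcf7 and 313 CPM of Ets1, the lowest of them.

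**Figure D3:**
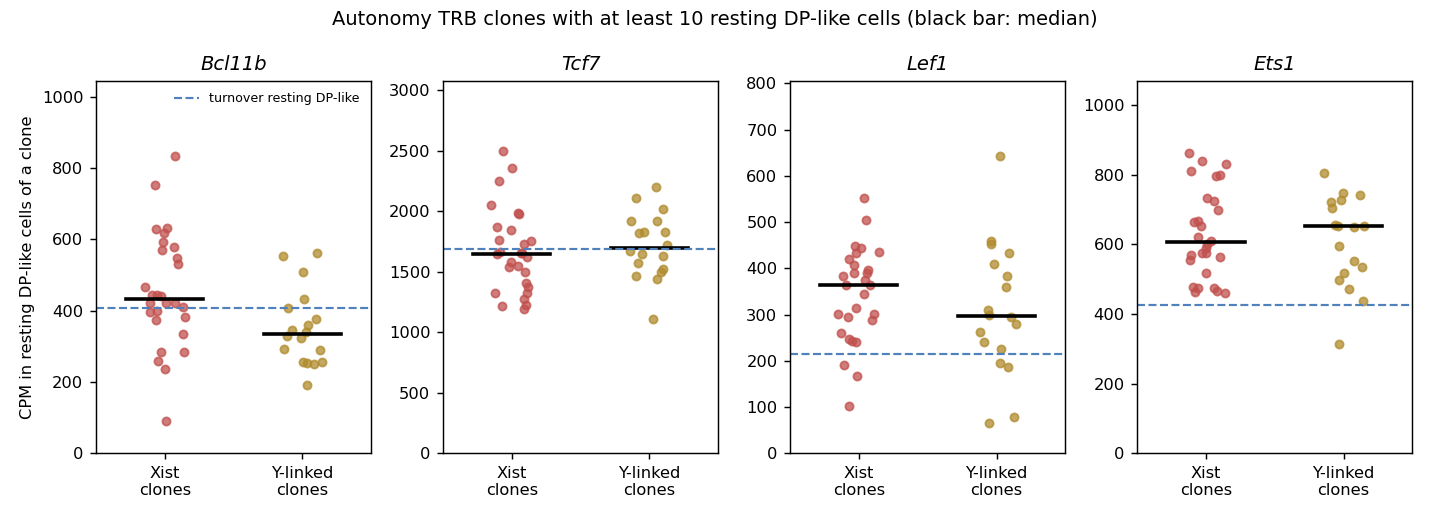
Level in CPM of Bcl11b, Tcf7, Lef1 and Ets1 in the resting DP-like cells of single autonomy TRB clones with at least 10 such cells, for 28 Xist clones and 18 Y-linked clones; black bars are medians and the dashed line is the turnover level of resting DP-like cells. Most clones lie above that line for Ets1 and Lef1, and clones of both kinds lie on either side of it for Tcf7.

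Taking 1 cell per TRB clone left 420 resting autonomy cells and 2407 resting turnover cells. The resting ratios were then 1.74 for Lef1, 1.41 for Ets1, 2.39 for Gfi1, 3.05 for Zfpm1, 0.976 for Bcl11b and 0.988 for Tcf7. In post-selection-like cells Tcf7 stood at 0.640 with 142 autonomy cells and 510 turnover cells. The values of Bcl11b and Tcf7 in resting cells thus moved from just above 1 to just below it, and the others kept their side of 1.

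**Figure D4:**
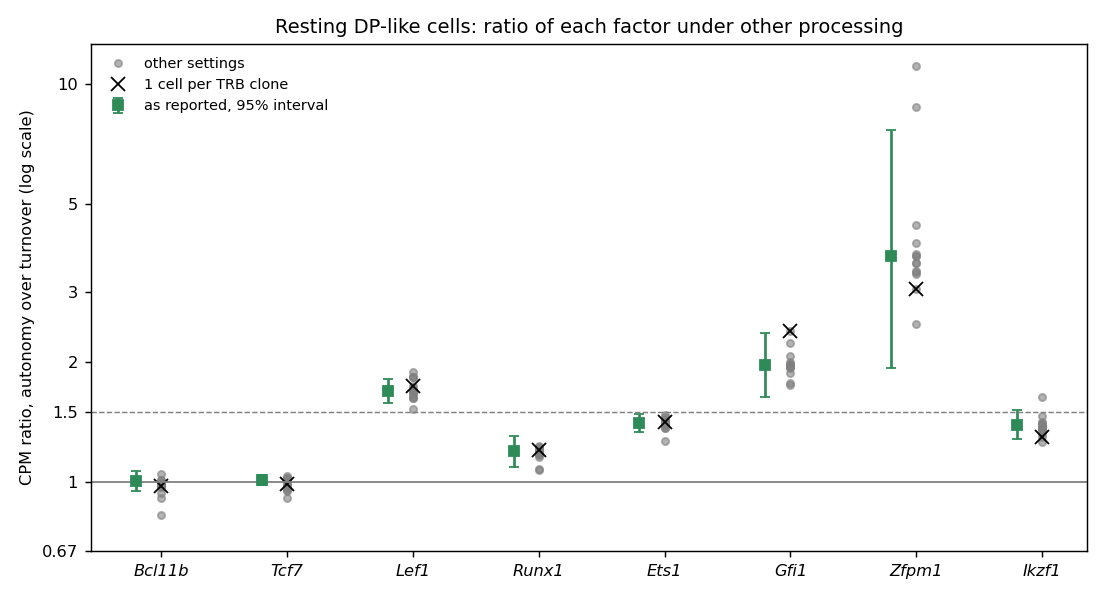
Resting DP-like cells: CPM ratio of each factor, autonomy over turnover, on a log axis; squares with bars are the values as reported with 95% intervals, crosses take 1 cell per TRB clone and grey points are the other settings. Lef1 ran from 1.52 to 1.89, Gfi1 from 1.75 to 2.39 and Zfpm1 from 2.49 to 11.1, while Bcl11b and Tcf7 gathered around 1.

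The state of the T cell receptor loci was set beside the factors in resting cells. In autonomy, cells with a productive TRA (TCR alpha) chain, with only an unproductive or partial TRA contig and with none had 392, 411 and 435 CPM of Bcl11b, and 354, 372 and 366 CPM of Lef1. In turnover the same order gave 416, 399 and 405 CPM of Bcl11b and 218, 208 and 219 CPM of Lef1. The counting intervals of the 3 states overlapped for both genes in both libraries. By TRB state, autonomy resting cells with a productive chain had 399 CPM of Bcl11b and those with only an unproductive or partial contig 395 CPM. The 106 autonomy resting cells without any TRB contig had 809 CPM of Bcl11b (682 to 952) and 489 CPM of Lef1 (391 to 603), while Tcf7 was 1747 CPM. Those cells also had fewer UMIs (median 1557, against 2301 with a productive chain), more mitochondrial UMIs (median 3.34% against 2.57%) and 12217 CPM of Malat1 against 7535 CPM. The part of these properties in the Bcl11b level was not tested. With cells that lack a TRB contig left out of both libraries, the resting ratio of Bcl11b was 0.974.

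Partners and co-regulators of the factors were counted over all cells. Of 23 measured, 16 were at least 1.5-fold higher in autonomy and 0 lower, beside 33.4% of all genes higher and 8.99% lower. Their median log2 ratio was 0.68, beside 0.30 for all genes and 0.79 for the 8 factors. Tcf3, an E protein gene, had 232 CPM in autonomy and 59.2 CPM in turnover, a ratio of 3.91 (3.66 to 4.18), and it was 3.83 (3.42 to 4.30) in resting cells. Tle1, a corepressor that TCF and LEF factors recruit, had a ratio of 3.1 (2.32 to 4.19) from 166 and 66 UMIs. At the other end Rbbp4, a chromatin remodelling subunit, had a ratio of 0.904 (0.876 to 0.933) and Mta1, of the NuRD complex, 0.920 (0.748 to 1.13). These values are over all cells, with unequal mixtures of stages. Rbbp4 stood at 1.0 (0.946 to 1.07) in resting and 1.04 (0.986 to 1.09) in cycling cells, and Mta1 at 1.36 (0.874 to 2.14) in resting cells. Tle1 stood at 2.63 (1.74 to 4.06) in resting cells. In cycling cells it was 0.729 (0.243 to 1.84), from 6 autonomy and 23 turnover UMIs. In resting, cycling and post-selection-like cells 11 partners each were higher, of 22, 23 and 21 measured, and 0 were lower. Of all genes, 23.7%, 23% and 23.4% were higher in these stages, and 6.31%, 6.51% and 7.15% were lower.

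Paralogs were mixed. Of 12 measured over all cells, 4 were higher (Runx3, Ets2, Ikzf3 and Fli1) and 2 lower (Bcl11a with 5 and 21 UMIs, Tcf7l1 with 7 and 13), beside 33.4% of all genes higher and 8.99% lower. Runx3, which represses Cd4 in the CD8 lineage, had 28.8 CPM in autonomy and 8.82 CPM in turnover, a ratio of 3.26 (2.74 to 3.9), and 20.3 and 5.57 CPM in resting cells. Ets2 had 552 CPM in autonomy and 180 CPM in turnover, a ratio of 3.07 (2.95 to 3.19), and within resting cells the ratio was 1.86 (1.78 to 1.95). Ikzf2, which encodes HELIOS, had a ratio of 1.07 (0.995 to 1.14) over all cells, but 0.764 (0.625 to 0.932) in resting and 0.676 (0.567 to 0.802) in cycling cells. Ikzf5 had a ratio of 1.09 (0.963 to 1.24) over all cells and 0.757 (0.570 to 0.993) in cycling cells. Zfpm2 had 0 UMIs in both libraries.

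Progenitor and other-lineage genes were sparse, with 7 of 16 reaching 20 UMIs over all cells, of which 6 were higher and 1, Kit, lower, beside 33.4% of all genes higher and 8.99% lower. In resting, cycling and post-selection-like cells only 3, 3 and 2 were measured. Of these 2, 2 and 1 were higher, beside 23.7%, 23% and 23.4% of all genes. In the same order 0, 1 and 0 were lower, beside 6.31%, 6.51% and 7.15%. Il2rb had 244 UMIs in autonomy and 17 in turnover, a ratio of 17.7 (10.8 to 30.9), but 0 UMIs in resting cells of both libraries. Summed markers of innate cells, Il2rb among them, were highest in the mature single positive-like cluster, with 870 CPM in its 154 autonomy cells and 471 CPM in its 19 turnover cells, and the part of that cluster in the ratio was not tested. Id2, which encodes an inhibitor of E proteins, had 18.5 CPM in autonomy and 10.0 CPM in turnover, a ratio of 1.85 (1.54 to 2.22), and 1.47 (1.0 to 2.17) in resting cells. Among genes that rise at commitment or in DP cells, Ptcra, the surrogate TCR alpha chain, had 379 CPM in autonomy and 108 CPM in turnover. Over all cells its ratio was 3.51 (3.34 to 3.69), and it was 4.82 (4.35 to 5.34) in resting cells. Bcl2l1 had a ratio of 2.01 (1.89 to 2.14) over all cells. It was 1.41 in resting, 1.96 in cycling and 1.38 in post-selection-like cells. Cd3d and Cd3g, subunits of CD3, had ratios of 0.997 (0.978 to 1.02) and 1.04 (1.02 to 1.06) over all cells. Within stages both were lower in autonomy. Cd3d was at 0.749 (0.729 to 0.770) in resting, 0.898 (0.858 to 0.939) in cycling and 0.769 (0.734 to 0.806) in post-selection-like cells. In the same order Cd3g was at 0.936 (0.909 to 0.963), 0.825 (0.790 to 0.861) and 0.863 (0.822 to 0.906).

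Over 21 points, each a cluster in 1 library with at least 50 cells, the levels of Ets1 and Ikzf1 were the most alike of the 28 pairs of factors (Pearson r of 0.90), followed by Bcl11b with Runx1 (0.85) and Lef1 with Ikzf1 (0.84). Tcf7 and Lef1 had r of 0.28. Among 7098 genes, the gene most like each factor was Sh2d1a for Tcf7 and Pnrc1 for Ets1 (0.97 each), Wdr78 for Bcl11b (0.95), Ube3a for Gfi1 and Rasgrp1 for Ikzf1 (0.93 each), Patz1 for Runx1 (0.90), Med14 for Lef1 (0.89) and Get4 for Zfpm1 (0.88). The Zfpm1 value rests on few UMIs, 153 in autonomy and 67 in turnover over all cells. Zfpm1 itself was thus below the minimum of UMIs set for the 7098 genes, and its most alike gene is not resolved. The points share libraries, stages and depth, so these values are a description.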

How the data were processed

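Gene expression tables held raw counts of UMIs per gene and cell, as deposited by the authors. V(D)J tables held contig calls with UMI counts, as deposited. Cell Ranger 3.0.2, Seurat 3.1.3.9002 and mm10 are named without a role, per the submitters' processing notes, and annotation and cell calling are not given in the sources used here. The autonomy table had 4587 barcodes and 16388810 UMIs, and that of turnover had 4374 and 20163286.

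Barcodes with at least 1000 UMIs were kept. Leiden clustering (resolution of 1, 15 neighbours) ran on 30 components of 2000 variable genes, as logs centred per library. Variable genes excluded the 8 factors and TCR, sex, cycle, mitochondrial and ribosomal genes. Doublet scores called 0 autonomy cells and 2 turnover cells, and none was removed. UMIs were summed per class and library. Levels carry exact Poisson, shares exact Clopper-Pearson and ratios conditional exact binomial 95% intervals, which treat UMIs as independent. The ratio was tested on simulated data.

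Genes needed 20 UMIs over both libraries. The 8 factors, the lists and most thresholds were chosen with earlier results of these data known. Of each list the 2 highest and 2 lowest ratios among genes with 200 UMIs are named. The count for the list of commitment and DP stage genes is not reported here. In the clone, TRB and TRA comparisons the cells share 1 library. Likeness used log2 of CPM plus 10 over genes with 500 UMIs. Python 3.11.15, scanpy 1.11.5, leidenalg 0.10.2, scipy 1.17.1, R 4.3.3 and edgeR 4.0.16 (TMM factors) were used.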

Additional observations from a re-analysis of the deposited data

Results flagged for a closer look

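Tcf7 went opposite ways in 2 stages. Its ratio of autonomy over turnover was 1.09 (1.05 to 1.13) in cycling ISP/DP-like cells and 0.766 (0.722 to 0.811) in post-selection-like cells. With 1 library per condition the difference between the stages was not tested. With TMM factors the cycling ratio was 0.966 and with a marker gate on single cells 0.999, so the opposite direction rests on the scaling and on how stages are set, while the post-selection-like ratio stayed below 1 under the 12 settings tried.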

How the results depend on the processing

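No paired analysis was possible because each condition had 1 gene expression library and no test was made. Over all cells 5 factors were at least 1.5-fold apart, and 3 were with the mean of per-cell CPM, 3 with each cell thinned to 1000 UMIs and 3 with autonomy classes weighted as in turnover, which was added once the values were known. With a 2-fold threshold the counts were 2 over all cells, 1 in resting cells and 1 in cycling cells. With a marker gate on single cells, 1 factor passed in post-selection-like cells, where 2 passed as reported. The other counts stayed within 1.5 times. Of 384 recomputed ratios, 282 lay inside the interval of the reported value, 101 lay outside it, and 1 ratio that was past 1.5-fold as reported came out on the other side of 1, Zfpm1 in cycling cells at 0.884 after thinning, where few UMIs remained. With smaller differences included, 35 ratios changed side of 1. Bcl11b, Tcf7 and Runx1 were close to 1: with TMM factors they were 0.906, 0.939 and 0.996 over all cells, beside 1.10, 1.14 and 1.21 as reported. Zfpm1 in resting cells was 11.1 after thinning and 8.76 among cells with Y-linked and no Xist transcripts, and Gfi1 in cycling cells was 6.37 after thinning and 1.26 with 1 cell per TRB clone. Few UMIs limit Zfpm1 and Gfi1 most. The causes were not tested.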
